A study of Homo sapiens with 4 samples.

Results

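The genes described here encode the families of secreted and membrane-bound cues that steer growing axons, the receptors that read them, and the collapsin response mediator proteins (CRMPs) that act inside the cell. They were chosen by symbol among protein-coding genes, as semaphorins of classes 3 to 7, plexins, neuropilins, Eph receptors, ephrins, Slits, Robos, netrins 1, 3, 4 and 5, the netrin receptors UNC5A to UNC5D, DCC and NEO1, and the 5 CRMP genes. The rule matched 75 genes of the 63677 Ensembl identifiers in the count table. Of the 75, 61 had enough counts to be tested and 14 did not. The measurements came from LX-2, one established line of human hepatic stellate cells, the collagen-producing pericytes of the liver. In one group the cells had received the miR-6133-5p mimic and in the other a negative control mimic (miControl), each at 20 nM. Both groups received rhTGF-β1, a cytokine that activates stellate cells, at 5 ng/mL from 24 h after transfection, and RNA was taken after 24 h of this treatment. Each group had 2 libraries of polyadenylated RNA, and cells without rhTGF-β1 or without a mimic were not analysed here. The comparison asked how the guidance families differed between miR-6133-5p and miControl while rhTGF-β1 was present.

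Semaphorins signal through plexins, with neuropilins as co-receptors for most secreted class 3 members. Ephrins are tethered to the membrane and bind Eph receptor tyrosine kinases on neighbouring cells. Slits bind Robo receptors, and netrins bind DCC, neogenin (NEO1) and the UNC5 receptors. All of these pathways converge on small GTPases and the cytoskeleton, and CRMPs bind tubulin and other cytoskeletal proteins. Although named for neurons, they are used widely in mesenchymal and vascular tissue, where they affect cell migration, adhesion and contact repulsion.

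Counts on genes summed to between 51862006 and 93811213 per library. Levels are given as CPM, the counts scaled to a common library total after TMM scaling, and a single count corresponded to 0.0101 to 0.0203 CPM. Of 10 stellate cell markers, *COL1A1*, *COL3A1*, *VIM*, *PDGFRB* and *ACTA2* were detected, whereas *DES*, *GFAP*, *LRAT* and *HAND2* were under 1 CPM in every library. The sum of the list was 5191 and 4708 CPM with miControl and 3173 and 2851 CPM with miR-6133-5p, and most of that difference was *COL1A1*, at 3112 and 2723 CPM against 995 and 1133 CPM. *COL1A1* and *ACTA2* were called lower, whereas *VIM* (1853 and 1776 CPM against 2030.2 and 1555 CPM), *PDGFRB* and *RELN* overlapped between the groups and *COL3A1* was not called. The summed level of 6 neuronal markers was 3.03 to 3.12 CPM with miControl and 3.79 to 4.70 CPM with miR-6133-5p, with 4 of the 6 under 1 CPM in every library, *RBFOX3*, *SNAP25* and *ELAVL3* among them. The sum of 4 endothelial markers was 5.59 to 5.88 CPM with miControl and 4.94 to 5.76 CPM with miR-6133-5p. Over all 4 libraries the sums were 2.03 to 2.81 CPM for 5 hepatocyte markers, 1.16 to 2.27 CPM for 3 leukocyte markers and 0.0814 to 0.242 CPM for 3 epithelial markers. Their part in the results below was not tested. In RNA from a whole culture, fewer cells that express a gene cannot be told apart from less of its RNA per cell. The labels do not say whether the replicates were separate cultures, so p-values measure only the spread between these libraries, which may be technical. With 2 libraries against 2 an exact permutation test cannot go below p = 0.333, and the tests below come from a fit across all 18252 tested genes.

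The precursor hairpin of miR-6133 is given because the mimic is what distinguishes the groups. The mature sequence was not used here, so its place in the hairpin was not checked. In RefSeq (GRCh38.p14) the hairpin lies at chr7:133290881-133290988 on the plus strand, 5′ to 3′.

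MIR6133 hairpin: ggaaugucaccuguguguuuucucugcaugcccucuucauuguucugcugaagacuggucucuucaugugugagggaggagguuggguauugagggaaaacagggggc

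Promoters are shown next for members whose call held under all 14 alternative settings counted at the end. They are the lower ones with a single annotated start, and *DPYSL3*, which had the largest rise. Leaving out members whose exons overlap another gene is not among the 14, and it drops *EFNB2*. *SEMA7A*, *SEMA3B* and *NTN4* also held their calls and are not shown. Each promoter runs from 250 bases before the annotated start of transcription to 50 after it (RefSeq, GRCh38.p14). *SEMA5A* (chr5:9546026-9546325), *PLXNA2* (chr1:208244335-208244634) and *EFNB2* (chr13:106535613-106535912) were lower with miR-6133-5p, and *DPYSL3*, with annotated starts at chr5:147510019-147510318 and chr5:147453643-147453942, was higher. All lie on the minus strand and are written 5′ to 3′ on the gene's strand, with capitals at each match on either strand to any of 5 short motifs. The GC box was searched as GGGCGG. The TATA motif was searched as TATAAA. The binding motif of AP-1 was searched as TGANTCA. The SMAD-binding CAGA core was searched as CAGACA. The TEAD motif of the Hippo pathway was searched as GGAATG.

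SEMA5A: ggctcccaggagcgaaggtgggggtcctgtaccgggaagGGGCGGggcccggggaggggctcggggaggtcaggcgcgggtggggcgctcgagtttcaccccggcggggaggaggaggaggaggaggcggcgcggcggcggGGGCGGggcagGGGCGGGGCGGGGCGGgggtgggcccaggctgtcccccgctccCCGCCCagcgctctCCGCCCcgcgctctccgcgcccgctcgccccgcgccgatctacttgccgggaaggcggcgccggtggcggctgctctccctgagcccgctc
PLXNA2: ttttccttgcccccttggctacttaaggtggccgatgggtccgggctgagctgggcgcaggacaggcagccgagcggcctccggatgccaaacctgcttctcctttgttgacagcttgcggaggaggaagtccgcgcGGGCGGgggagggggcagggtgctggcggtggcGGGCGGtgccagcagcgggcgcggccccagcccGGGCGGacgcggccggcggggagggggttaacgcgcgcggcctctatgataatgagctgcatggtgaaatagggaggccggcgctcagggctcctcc
EFNB2: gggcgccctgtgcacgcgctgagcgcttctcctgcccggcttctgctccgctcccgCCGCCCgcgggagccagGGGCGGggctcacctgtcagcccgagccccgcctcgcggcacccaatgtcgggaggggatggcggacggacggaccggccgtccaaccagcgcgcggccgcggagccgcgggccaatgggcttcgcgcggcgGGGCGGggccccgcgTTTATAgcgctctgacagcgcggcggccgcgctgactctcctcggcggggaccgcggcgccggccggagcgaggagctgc
DPYSL3 first start: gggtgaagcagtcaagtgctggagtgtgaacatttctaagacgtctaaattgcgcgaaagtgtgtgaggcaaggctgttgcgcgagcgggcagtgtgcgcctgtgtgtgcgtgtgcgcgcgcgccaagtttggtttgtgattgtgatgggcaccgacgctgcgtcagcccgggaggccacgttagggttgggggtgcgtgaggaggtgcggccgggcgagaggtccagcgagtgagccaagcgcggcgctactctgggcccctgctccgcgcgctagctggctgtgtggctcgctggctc
DPYSL3 second start: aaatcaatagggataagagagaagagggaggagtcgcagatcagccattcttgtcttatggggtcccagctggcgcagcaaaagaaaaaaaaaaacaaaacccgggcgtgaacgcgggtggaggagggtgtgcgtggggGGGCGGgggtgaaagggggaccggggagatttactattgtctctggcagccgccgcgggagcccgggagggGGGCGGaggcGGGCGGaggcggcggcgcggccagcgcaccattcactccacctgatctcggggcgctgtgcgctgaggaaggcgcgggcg

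The *SEMA5A* window held 7 GC boxes, *PLXNA2* and *EFNB2* held 3 each, and of the *DPYSL3* starts one held 3 and the other 0. *EFNB2* also held 1 TATA motif, read on the opposite strand. Among the 101 promoters of the 64 members with an entry in the RefSeq table, 75 (74.3%) had a GC box, against 45.0% of all 35114 promoters of that length, and the median GC content was 66.7% against 58.7%. A TATA box was found in 3 of them (2.97%, against 11.5% of all), an AP-1 site in 1 (0.990% against 7.71%), a CAGA core in 14 (13.9% against 16.9%) and a TEAD site in 10 (9.90% against 14.0%). Several genes have more than one promoter, and neighbouring GC boxes may share a base. A match describes the letters alone.

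Of the 61 tested members, 13 were lower with miR-6133-5p and 5 were higher, where a call required 0.01 for the adjusted p-value and at least 0.8, up or down, for the log2 fold change (edgeR's quasi-likelihood test, Benjamini–Hochberg adjustment over all genes). The 18 called members compare with a share of 8.44% called among all genes. By direction, the counts were 21.3% and 8.20% of the tested members, whereas 5.54% and 2.90% of all tested genes, and 6.53% and 3.54% of the protein-coding ones, were called lower and higher. The log2 fold changes ran from -2.42 to 2.53 with a median of 0.11, against 0.03 for all genes, and were negative in 28 members and positive in 33. The 2 libraries of each group stood fully apart in 44 members (21 lower and 23 higher), or 72.1%, against 64.4% of all genes. A further 8 members passed the adjusted p-value with a smaller fold, 13.1% against 10.4% of all genes. Calls were thus spread over 9 of the 10 families, with the neuropilins the exception.

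**Figure D1:**
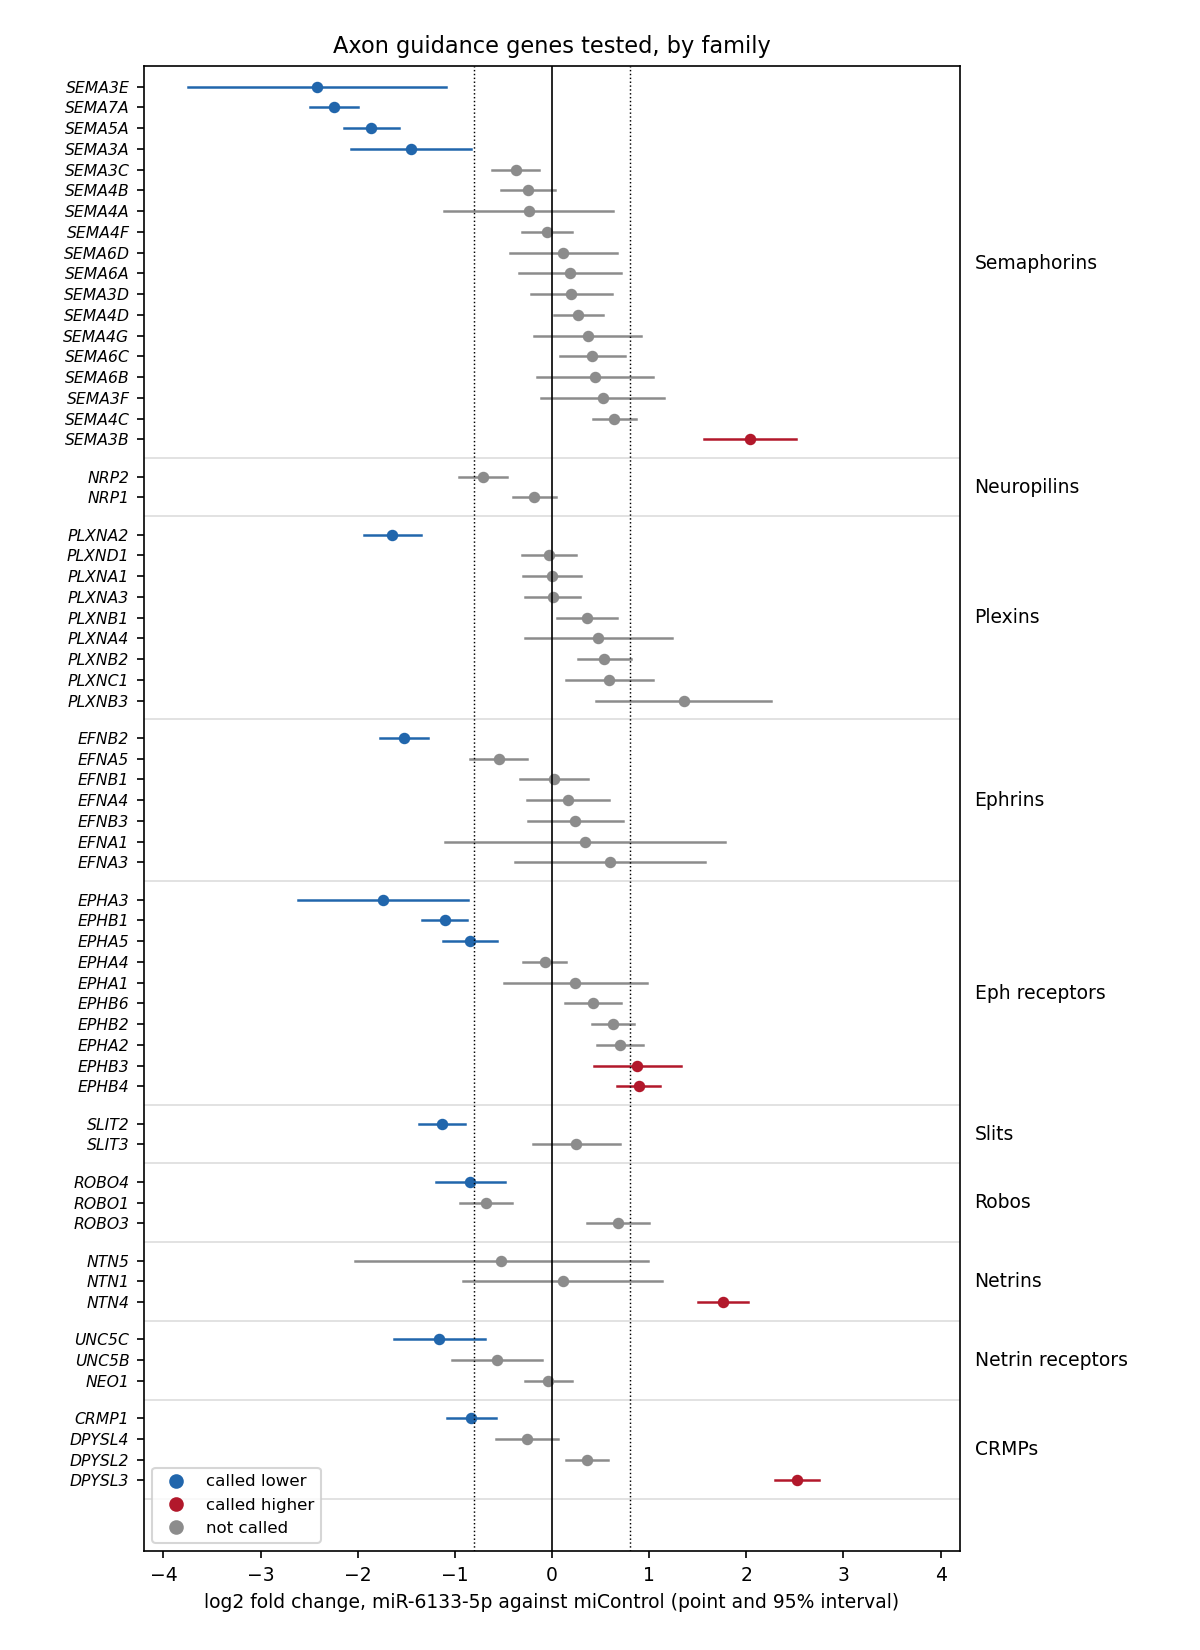
Log2 fold change of miR-6133-5p over miControl for the 61 tested members, grouped by family, with points for the estimate, bars for its 95% interval and dotted lines at -0.8 and 0.8. *DPYSL3* lies farthest to the right at 2.53, and *SEMA3E*, *SEMA7A* and *SEMA5A* lie farthest to the left, *SEMA3E* with an interval from -3.75 to -1.09.

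Of the 18 tested semaphorins, 4 (22.2%) were lower and 1 (5.56%) was higher, against 5.54% and 2.90% of all genes. Of the lower ones, 2 were among the most abundant guidance genes of these cells. *SEMA7A*, a GPI-anchored semaphorin that binds β1 integrins and plexin C1, was at 159.5 and 146 CPM with miControl and at 30.3 and 34.1 CPM with miR-6133-5p. *SEMA5A*, a transmembrane semaphorin with thrombospondin repeats, was at 618 and 646 CPM against 149.9 and 198 CPM. The groups were far apart for both genes. The mean of *SEMA7A* (chr15:74701630-74726299, GRCh37) fell from 153 ± 9.69 to 32.2 ± 2.66 CPM (SD, n = 2 libraries per group), with -2.25 as its log2 fold change (SE 0.113, adjusted p = 3.51e-08, edgeR). *SEMA5A* (chr5:9035145-9546187) fell from 632 ± 19.8 to 174 ± 34.3 CPM, with -1.86 as its log2 fold change (SE 0.132, adjusted p = 4.61e-07). These 2 genes passed under each of the 14 alternative settings.

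Among the secreted class 3 semaphorins the members moved in different directions. *SEMA3C*, the member with the highest level per kilobase of exon among all 75 under miControl, was at 299.7 and 345 CPM with miControl and at 235 and 263 CPM with miR-6133-5p (log2 fold change -0.37, 95% interval -0.62 to -0.13, adjusted p = 0.0229, edgeR), which did not pass the test although the groups did not overlap. *SEMA3B*, known as a tumour suppressor gene, was at 1.02 and 1.12 CPM against 4.80 and 4.0 CPM, and rose by 2.04 on the log2 scale, or 4.10-fold (SE 0.219, adjusted p = 1.51e-05). *SEMA3A*, the founding collapsin, which acts through neuropilin 1, was at 1.87 and 2.88 CPM against 0.826 and 0.908 CPM, a log2 fold change of -1.45 (SE 0.284, adjusted p = 0.00175). Its call rested on the second miControl library, since without it the log2 fold change was -1.13 with an adjusted p-value of 0.0487 (0.000230 to 0.0487 with each library left out in turn). *SEMA3E*, a ligand that binds plexin D1 without a neuropilin, had only 32 and 39 counts with miControl and 2 and 20 with miR-6133-5p. The estimate of -2.42 on the log2 scale (SE 0.614, adjusted p = 0.00926) ranged from -4.40 to -1.77 when libraries were left out, and the adjusted p-value missed 0.01 without either miControl library (0.0796 and 0.0808) and without the first miR-6133-5p library (0.0219), in a range from 0.000152 to 0.0808 over the 4 libraries left out. *SEMA3D* and *SEMA3F* did not pass the test, at log2 fold changes of 0.20 and 0.52.

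No other membrane semaphorin was called. *SEMA4C*, a plexin B2 ligand, was at 34.9 and 32.8 CPM with miControl and at 51.1 and 54.7 CPM with miR-6133-5p (log2 fold change 0.64, SE 0.104, adjusted p = 0.000439, edgeR), short of the 0.8 required of a call. *SEMA4D*, the plexin B1 ligand, was at 21.5 and 20.8 CPM against 23.4 and 27.6 CPM (log2 fold change 0.27, 95% interval 0.02 to 0.53, adjusted p = 0.102). *SEMA4B* and *SEMA4F* were at similar levels, with log2 fold changes of -0.25 and -0.05, and *SEMA4A* and *SEMA4G* lay between 0.474 and 2.02 CPM, with log2 fold changes of -0.24 and 0.37. The 4 tested class 6 semaphorins lay between 1.06 and 6.29 CPM in every library and had log2 fold changes of 0.12 to 0.44, none past the test. *SEMA3G* (0, 0, 6 and 2 counts) and *SEMA5B* (0, 0, 2 and 0 counts) were too low to test.

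Summed over the family per kilobase of exon, semaphorin transcripts were at 158 and 163 CPM per kb in the miControl libraries and at 78.1 and 88.6 in the miR-6133-5p libraries. *SEMA3C* took 32.9% of the sum with miControl and 49.0% with miR-6133-5p, on average, *SEMA5A* 32.0% and 16.9%, and *SEMA7A* 25.0% and 10.2%. The semaphorin pool was therefore lower in both miR-6133-5p libraries and was made up to a larger share of *SEMA3C*.

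**Figure D2:**
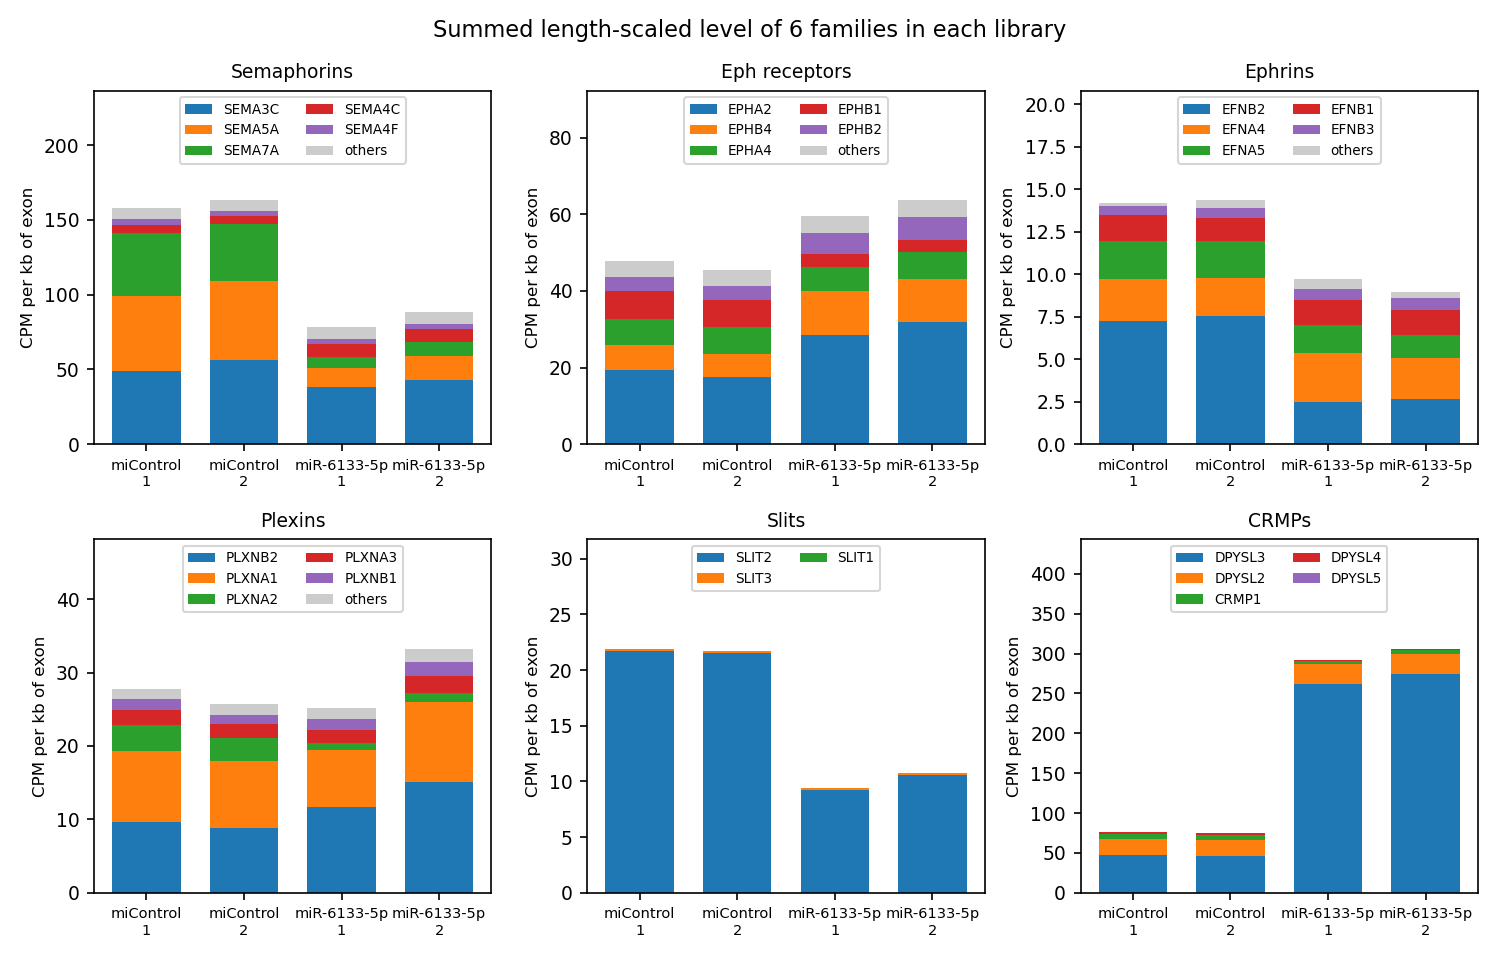
Summed level of 6 families in each library, in CPM per kilobase of exon, stacked by member with the 5 highest members named and the rest pooled. The CRMP bars rise from 75.6 and 75.1 to 292 and 306, mostly as *DPYSL3*, the semaphorin bars fall from 158 and 163 to 78.1 and 88.6, and the plexin bars stay between 25.2 and 33.2.

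Among the receptors for semaphorins, 1 of the 9 plexins (11.1%) was lower and none was higher, against 5.54% and 2.90% of all genes. Neither neuropilin was called. *NRP2*, a co-receptor for *SEMA3C* and *SEMA3F* and for VEGF-C, was at 308 and 287 CPM with miControl and at 164 and 199.5 CPM with miR-6133-5p. *NRP1*, the co-receptor for *SEMA3A* and VEGF-A, was at 221 and 229.9 CPM against 193 and 205 CPM. The groups did not overlap for either, yet the differences were of unequal size. *NRP2* had a log2 fold change of -0.71 (SE 0.116, adjusted p = 0.000475, edgeR), which reached -0.87 and a call without the second miR-6133-5p library, and *NRP1* had one of -0.18 (95% interval -0.40 to 0.04, adjusted p = 0.204).

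The called plexin of the 9 was *PLXNA2*, a receptor for class 3 and class 6 semaphorins (chr1:208195587-208417729, GRCh37). It was at 49.1 and 44.6 CPM with miControl and at 12.8 and 17.0 CPM with miR-6133-5p, and its mean fell from 46.9 ± 3.19 to 14.9 ± 2.97 CPM (SD, n = 2), with -1.64 as its log2 fold change (SE 0.137, adjusted p = 1.62e-06, edgeR). Its paralogue *PLXNA1*, the most abundant plexin in reads, was at 108 and 101 CPM against 87.3 and 122 CPM, so that the miR-6133-5p libraries lay on both sides of the miControl ones (log2 fold change -0.00, 95% interval -0.30 to 0.30, with a sign that changed with the library total and with single libraries left out). *PLXNA3* overlapped likewise, at 25.3 and 22.5 CPM against 21.0 and 26.9 CPM, and *PLXNA4* was low, at 0.732 and 0.698 CPM against 1.22 and 0.787 CPM (log2 fold change 0.48, adjusted p = 0.344). *PLXNB2*, a receptor for *SEMA4C*, was at 69.9 and 64.5 CPM against 85.3 and 110.1 CPM, a log2 fold change of 0.54 (SE 0.125, adjusted p = 0.00535). *PLXNB1* was at 13.6 and 11.7 CPM against 14.3 and 18.1 CPM (log2 fold change 0.36, adjusted p = 0.075). *PLXNB3* had 23 and 26 counts against 48 and 164, and its log2 fold change of 1.35 (adjusted p = 0.0252) became a call of 1.79 (adjusted p = 0.000331, of a range up to 0.361 over the libraries left out) without the first miR-6133-5p library. Its exons share 20.4% of their bases with another gene on the same strand, so its counts are uncertain.

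The receptors of *SEMA7A* and *SEMA3E* were not called. *PLXNC1*, a receptor for *SEMA7A*, was at 2.12 and 2.70 CPM with miControl and at 3.30 and 3.93 CPM with miR-6133-5p (log2 fold change 0.59, 95% interval 0.14 to 1.04, adjusted p = 0.0463, edgeR). *PLXND1*, the receptor for *SEMA3E*, was at 10.6 and 10.9 CPM against 9.90 and 11.1 CPM, a log2 fold change of -0.03 (95% interval -0.31 to 0.24). Within the plexin sum per kilobase, the share of *PLXNA2* went from 12.6% to 3.69% and that of *PLXNB2* from 34.5% to 46.0%, while the sum itself overlapped between the groups at 27.8 and 25.8 against 25.2 and 33.2 CPM per kb.

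**Figure D3:**
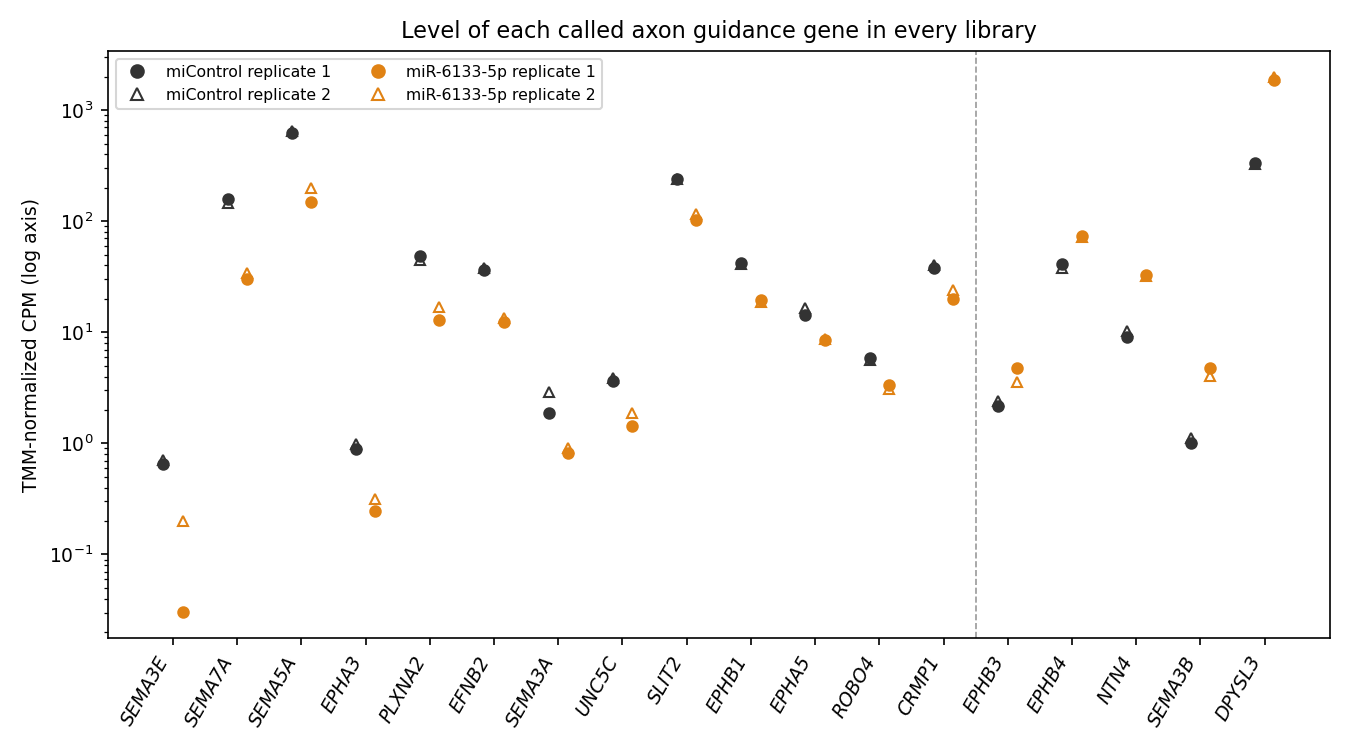
CPM of the 18 called members in each of the 4 libraries on a log axis, with circles for replicate 1 and open triangles for replicate 2 and the groups in different colours. The groups stand apart in all 18, which were selected by the test in these same libraries, and in 64.4% of all tested genes. Levels run from *DPYSL3* at 330 to 1970 CPM down to *SEMA3E* below 1 CPM in every library.

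Of the 7 tested ephrins, 1 (14.3%) was lower, and of the 10 tested Eph receptors, 3 (30.0%) were lower and 2 (20.0%) higher. Among all genes, 5.54% were lower and 2.90% higher. *EFNB2*, the transmembrane ephrin that marks arterial endothelium and pericytes, was at 36.2 and 37.8 CPM with miControl and at 12.3 and 13.4 CPM with miR-6133-5p. Its groups were far apart, and its mean fell from 37 ± 1.13 to 12.9 ± 0.766 CPM (SD, n = 2), with -1.52 as its log2 fold change (SE 0.113, adjusted p = 6.24e-07, edgeR, chr13:107142093-107188010, GRCh37). In GENCODE, 36.4% of its exon bases are overlapped by ENSG00000284966 on the opposite strand, and the strand setting of the counting is not given in the sources used here. The other transmembrane ephrins were low and did not pass the test: *EFNB1* was at 5.00 and 4.41 CPM against 4.77 and 4.79 CPM (log2 fold change 0.02), and *EFNB3* at 1.71 and 2.02 CPM against 2.11 and 2.29 CPM (log2 fold change 0.24). Of the GPI-anchored ephrins, *EFNA5* was at 12.8 and 12.6 CPM against 9.54 and 7.91 CPM, a log2 fold change of -0.55 (SE 0.135, adjusted p = 0.00777), short of a call. *EFNA1*, *EFNA3* and *EFNA4* overlapped between the groups in CPM. Per kilobase of exon, *EFNA4* was at 2.35 and *EFNA5* at 2.22 CPM per kb with miControl, and at 2.64 and 1.52 with miR-6133-5p. Another gene on the same strand shares 43.9% of the exon bases of *EFNA3* and 15.04% of those of *EFNA4*. The untested *EFNA2* had 0, 0, 6 and 0 counts. The ephrin sum per kilobase went from 14.2 and 14.4 to 9.72 and 8.98 CPM per kb, and the *EFNB2* share of it from 51.8% to 27.6%.

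Among the 5 EphB receptors, which bind mainly ephrin-B ligands, 1 (20.0%) fell and 2 (40.0%) rose, against 5.54% and 2.90% of all genes. *EPHB1* was at 41.7 and 40.8 CPM with miControl and at 19.5 and 18.8 CPM with miR-6133-5p (log2 fold change -1.11, SE 0.106, adjusted p = 5.65e-06, edgeR). *EPHB4*, the venous receptor whose preferred ligand is ephrin-B2, was at 41.4 and 37.6 CPM against 74.2 and 72.2 CPM, a rise of 0.89 on the log2 scale, or 1.85-fold (SE 0.104, adjusted p = 3e-05). *EPHB3* was at 2.16 and 2.39 CPM against 4.82 and 3.58 CPM, a log2 fold change of 0.88 (SE 0.208, adjusted p = 0.00603). The *EPHB4* change was 0.79 without the second miControl library, just below the threshold for a call, and *EPHB3* lost its call without either miControl library and without the first miR-6133-5p library, with log2 fold changes of 0.798, 0.93 and 0.64 and adjusted p-values of 0.0862, 0.039 and 0.0219 (9.20e-05 without the second miR-6133-5p library). *EPHB2* was at 47.4 and 45.4 CPM against 69.6 and 73.6 CPM (log2 fold change 0.63, SE 0.101, adjusted p = 0.000436), and *EPHB6*, which lacks kinase activity, at 9.91 and 8.57 CPM against 11.9 and 12.8 CPM (log2 fold change 0.42, adjusted p = 0.027). *EPHB1* was thus the lower one of a class in which the other 4 had positive log2 fold changes.

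Of the 5 tested EphA receptors, which bind mainly ephrin-A ligands, 2 (40.0%) fell and none rose, against 5.54% and 2.90% of all genes. *EPHA5* was at 14.2 and 16.5 CPM with miControl and at 8.49 and 8.63 CPM with miR-6133-5p (log2 fold change -0.85, SE 0.129, adjusted p = 0.000272, edgeR), which was -0.76 without the second miControl library and -0.68 with library totals alone, both short of the call. *EPHA3* had 44 and 54 counts against 16 and 31, a log2 fold change of -1.74 (SE 0.405, adjusted p = 0.00551), and lost its call without either miControl library (adjusted p = 0.0432 and 0.0551) and without the first miR-6133-5p library (0.0101), whereas it was 0.0033 without the second. *EPHA2*, the Eph receptor with the highest level per kilobase here and a frequent target in tumours, was at 80.5 and 73.1 CPM against 118 and 132 CPM, a log2 fold change of 0.70 (SE 0.109, adjusted p = 0.000314), short of the fold required. *EPHA4*, which binds both ephrin classes, was at 52.2 and 54.5 CPM against 48.1 and 53.0 CPM, a log2 fold change of -0.08 (95% interval -0.30 to 0.15) that became 0.09 with library totals alone. *EPHA1* stayed near 1 CPM, while *EPHA6*, *EPHA7*, *EPHA8* and *EPHA10* had at most 7 counts in any library and were not tested. The Eph receptor sum per kilobase was 47.8 and 45.5 with miControl and 59.6 and 63.6 CPM per kb with miR-6133-5p, with *EPHA2* at 39.7% and 48.9% of it, *EPHB4* at 13.1% and 18.5%, and *EPHB1* at 15.1% and 5.34%.

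In the Slit and Robo system the one abundant ligand fell. *SLIT2* was at 241 and 239 CPM with miControl and at 102 and 117 CPM with miR-6133-5p, and its mean fell from 239.6 ± 1.32 to 109 ± 10.2 CPM (SD, n = 2), with -1.13 as its log2 fold change (SE 0.108, adjusted p = 5.35e-06, edgeR, chr4:20253528-20622184, GRCh37). It made up 99.2% and 98.0% of the Slit sum per kilobase. *SLIT3* was at 2.52 and 2.20 CPM against 2.65 and 2.97 CPM, and *SLIT1* had 0, 0, 2 and 5 counts. *ROBO1*, a Slit receptor and the most abundant Robo, was at 59.8 and 63.7 CPM against 33.5 and 43.5 CPM, a log2 fold change of -0.68 (SE 0.126, adjusted p = 0.00117), which was -0.90 and a call without the second miR-6133-5p library. *ROBO3*, a divergent Robo that mammals use in commissural axons, was at 7.53 and 5.93 CPM against 10.7 and 10.8 CPM, a log2 fold change of 0.68 (SE 0.147, adjusted p = 0.0035). *ROBO4*, known from endothelium, was at 5.86 and 5.65 CPM against 3.35 and 3.09 CPM, a log2 fold change of -0.84 (SE 0.164, adjusted p = 0.00171). This call was lost without the first miControl library (adjusted p = 0.033), without the second (0.0154), and, through a log2 fold change of -0.796, without the second miR-6133-5p library (adjusted p-values of 0.000194 to 0.033 over the 4 libraries left out), and 18.0% of the *ROBO4* exon bases are overlapped on the opposite strand. *ROBO2* had 0 counts in all 4 libraries, where 3 counts would have been 0.0303 to 0.0610 CPM.

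In the netrin system a ligand rose and a receptor fell. *NTN4*, a laminin-related netrin of basement membranes, was at 8.99 and 10.2 CPM with miControl and at 32.9 and 32.2 CPM with miR-6133-5p. Its groups did not come near each other, and the mean rose from 9.62 ± 0.887 to 32.6 ± 0.488 CPM (SD, n = 2), by 1.76 on the log2 scale or 3.38-fold (SE 0.120, adjusted p = 3.53e-07, edgeR, chr12:96051583-96184967, GRCh37). It made up 93.5% and 98.0% of the netrin sum per kilobase, as *NTN1* and *NTN5* were below 1 CPM in every library and *NTN3* had 2, 5, 9 and 6 counts. *UNC5C*, a repulsive netrin receptor, was at 3.62 and 3.86 CPM against 1.42 and 1.90 CPM, a log2 fold change of -1.16 (SE 0.217, adjusted p = 0.00127), and the adjusted p-value was 0.0201 and 0.0175 without the first and the second miControl library (1.59e-05 to 0.0201 with each library left out in turn). *UNC5B* was at 3.25 and 2.74 CPM against 1.87 and 2.16 CPM (log2 fold change -0.57, adjusted p = 0.0626). *NEO1*, the netrin receptor with the highest level here and also the receptor of repulsive guidance molecules, was at 37.8 and 43.1 CPM against 37.2 and 41.5 CPM, with a log2 fold change of -0.04 (95% interval -0.28 to 0.20) that turned positive with library totals alone. *DCC* (1, 1, 4 and 7 counts), *UNC5A* (4, 0, 1 and 4) and *UNC5D* (0, 0, 1 and 0) were too low to test.

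The largest rise of the whole set was in a CRMP. *DPYSL3*, which encodes CRMP4, was at 338 and 330.5 CPM with miControl and at 1877 and 1969.6 CPM with miR-6133-5p, and its mean rose from 334 ± 4.99 to 1923 ± 65.5 CPM (SD, n = 2). The log2 fold change was 2.53 (SE 0.105; 95% interval 2.30 to 2.75, adjusted p = 1.12e-08, edgeR), a 5.76-fold rise, which stayed between 2.48 and 2.54 with any library left out and ranked 19 among all tested genes by size of rise. The gene lies at chr5:146770371-146889631 (GRCh37). *CRMP1*, a paralogue known for a part in the collapse response to semaphorin 3A, moved the other way, from 37.7 and 40.2 CPM to 19.9 and 23.9 CPM, a log2 fold change of -0.83 (SE 0.118, adjusted p = 0.000158), which was -0.73 without the first miR-6133-5p library and -0.67 with library totals alone, both short of a call. *DPYSL2*, which encodes CRMP2, was at 146 and 144 CPM against 184 and 187 CPM, a log2 fold change of 0.36 (95% interval 0.15 to 0.58, adjusted p = 0.015), and *DPYSL4* was at 6.85 and 7.78 CPM against 6.33 and 5.92 CPM (log2 fold change -0.26, adjusted p = 0.21). *DPYSL5* had 0 counts in every library.

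The CRMP sum per kilobase rose from 75.6 and 75.1 to 292 and 306 CPM per kb. *DPYSL3* made up 61.7% of it with miControl and 89.6% with miR-6133-5p, *DPYSL2* 26.3% and 8.52%, and *CRMP1* 8.81% and 1.25%. Ordered by level per kilobase, the highest members with miControl were *SEMA3C* (52.8 CPM per kb), *SEMA5A* (51.3), *DPYSL3* (46.5) and *SEMA7A* (40.2). With miR-6133-5p *DPYSL3* ranked 1 at 268 CPM per kb, *SEMA3C* 2, *EPHA2* 3, *SEMA5A* 6 and *SEMA7A* 12.

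Set side by side by role, 6 of the 30 tested ligands (20.0%) were lower and 2 (6.67%) were higher. Of the 27 tested receptors, 6 (22.2%) were lower and 2 (7.41%) were higher. The shares were 5.54% and 2.90% among all tested genes, and 6.53% and 3.54% among the protein-coding ones. The median log2 fold changes were 0.14 for the ligands and -0.00 for the receptors. With library totals alone the median of all genes moves from 0.03 to 0.19, and these medians shift with it. The plexin median was 0.36, the EphB median 0.63 and the EphA median -0.08, and both neuropilins were negative with a median of -0.45. Ligand and receptor pairs did not follow a common direction. *EFNB2* fell while *EPHB4* rose and *EPHB1* fell. *SLIT2* fell, and its receptor *ROBO1* had a negative log2 fold change short of a call. *SEMA7A* fell while *PLXNC1* had a positive log2 fold change that missed the test. These are values of separate genes in one comparison, and no test was made of the pairs.

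Of 60 further genes of the same pathways, mainly cytoplasmic effectors and adhesion partners, 55 were tested. Of these, all protein-coding, 8 (14.5%) were lower and 3 (5.45%) were higher. The shares were 5.54% and 2.90% of all tested genes, and 6.53% and 3.54% of the protein-coding ones. The median log2 fold change of these partner genes was -0.11. The largest decrease was in *RGMB*, a repulsive guidance molecule and a ligand of neogenin, at 1157 and 1149.7 CPM with miControl and at 384 and 371 CPM with miR-6133-5p (log2 fold change -1.61, adjusted p = 2.03e-07, edgeR). Genes on the opposite strand, *RGMB-AS1* among them, overlap 45.8% of its exon bases. *SRGAP1*, a GTPase-activating protein that binds Robo receptors, was at 96.8 and 99.2 CPM against 31.7 and 38.1 CPM (log2 fold change -1.49), and *MICAL2*, of the MICAL family of actin-oxidising enzymes first known from plexin signalling, was at 736 and 722 CPM against 237 and 298 CPM (log2 fold change -1.44).

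Other effectors and a ligand of the UNC5 family fell as well. *MYO10*, an unconventional myosin of filopodia that binds netrin receptors, had a log2 fold change of -1.30. *FLRT2*, a ligand of UNC5 receptors, had one of -1.27. *ARHGEF11*, a RhoA exchange factor bound by B plexins, had one of -1.19, *FARP2*, an exchange factor bound by A plexins, one of -1.11, and *ABL1*, a kinase downstream of Robo, one of -1.07 (adjusted p = 1.29e-05, edgeR). *CDK5*, a kinase that phosphorylates CRMPs, rose from 18.8 and 17.7 CPM to 38.4 and 33.6 CPM (log2 fold change 0.98, adjusted p = 3.14e-05). In a test against the fold of 0.8 itself (glmTreat), *FLRT2*, *ARHGEF11*, *FARP2*, *ABL1* and *CDK5* were not called.

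The calls of the other 2 rises depended on single libraries. *RND1*, a small GTPase that binds plexins, was at 0.671 and 0.477 CPM with miControl and at 1.61 and 1.48 CPM with miR-6133-5p (log2 fold change 1.43, adjusted p = 0.00427, edgeR), and lost its call without either miControl library (adjusted p = 0.0224 and 0.0605, from 0.00238 over the 4 libraries left out). *RASA1*, a Ras GTPase-activating protein, was at 130.2 and 142 CPM against 239 and 258 CPM (log2 fold change 0.87, adjusted p = 4.38e-05), with 14.7% of its exon bases overlapped by *CCNH* on the opposite strand, and its log2 fold change was 0.799 without the first miControl library and 0.796 without the second miR-6133-5p library, both short of a call. Unlike *RND1*, the GTPase genes *RHOA*, *RAC1* and *CDC42* had negative log2 fold changes, of -0.51, -0.39 and -0.36, none of them called. *RHOA* passed the adjusted p-value (0.00305, edgeR) with a smaller fold, whereas *RAC1* (0.0198) and *CDC42* (0.0176) did not. Other genes overlap 19.0% of the exon bases of *RHOA* and 18.3% of those of *CDC42*. *RRAS* overlapped between the groups, with a log2 fold change of -0.05.

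**Figure D4:**
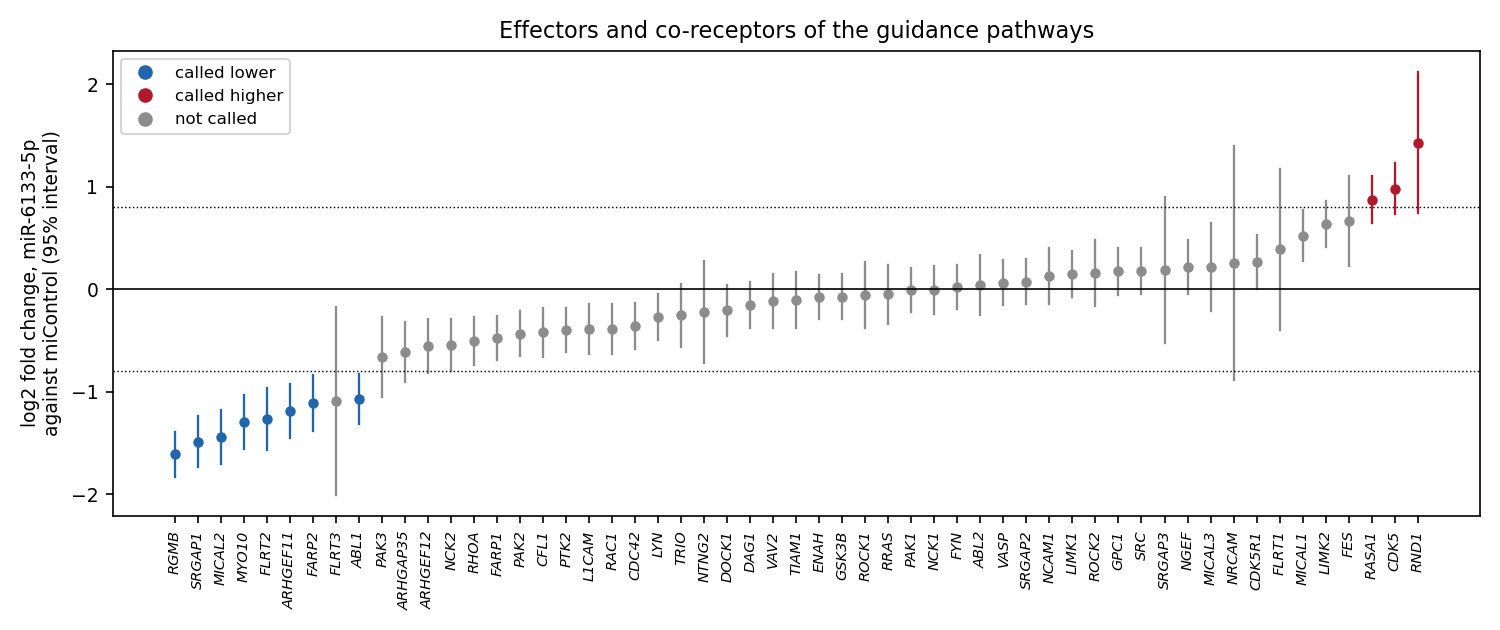
Log2 fold change of miR-6133-5p over miControl for the 55 tested partner genes, in order of size, with 95% intervals and dotted lines at -0.8 and 0.8. *RGMB* is at the lower end at -1.61 and *RND1* at the upper end at 1.43, and most of the genes lie between the dotted lines.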

How the data were processed

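Counts per Ensembl gene, whole numbers without normalization, were deposited by the authors for 4 libraries of LX-2 cells. Per the labels, a stranded mRNA kit was used. The paper's methods name GeneData Profiler and GRCh37, and the submitters' processing notes name STAR 2.5.3a and featureCounts from Subread 1.6.4. The annotation release and the strand setting are not given in the sources used here. There were 1.68 to 1.70 counts per uniquely mapped read pair, so a pair could give more than 1 count. The aligner's summary gave, as deposited, the percent of input pairs mapped to a unique place (96.5% to 96.8%). Of the identifiers, 55665 had a symbol.

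Genes were filtered with filterByExpr, scaled by TMM, and edgeR 4.0.16 (R 4.3.3) fitted them by glmQLFit with all 4 libraries and no covariate, and the p-values were adjusted by the Benjamini–Hochberg method over 18252 genes. Calls used an adjusted p of 0.01 and a log2 fold change of 0.8, the thresholds of the paper's methods. The pooled biological coefficient of variation was 0.105, and the median difference in log2 CPM between replicates over the members was 0.140 with miControl and 0.185 with miR-6133-5p, which limits what 2 libraries can resolve. Intervals come from the fit. CPM used TMM-scaled totals and no pseudocount, and CPM per kb divided it by the union of GENCODE 44 exons lifted to GRCh37, and the authors may have counted on other gene models.

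Named with full statistics are every called member, and in each family the tested member with the highest level per kb and those past the adjusted p with a smaller fold. Called partner genes are named with their log2 fold change, and some of them also with CPM. The members and the lists of partner genes and markers were chosen with earlier results of these data known, so no list was tested for enrichment. The marker *PECAM1* was not matched. Alternatives were RLE scaling, library totals alone, DESeq2 1.42.0, no filter, thinned counts, a minimum of 10 counts per library, a replicate block, each library left out, glmTreat, an adjusted p of 0.05, no fold threshold, and leaving out members with at least 10% of exon bases in another gene. Matches to the seed were not searched, and other experiments of the paper were not analysed here. Sequences were read from RefSeq tables in Python 3.11.15 with pandas 2.3.3, and figures made in matplotlib 3.10.9.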

Additional observations from a re-analysis of the deposited data

How the results depend on the processing

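None of the 18 called members changed sign under any of the 14 alternatives in which they were tested, and 7 (*DPYSL3*, *EFNB2*, *NTN4*, *PLXNA2*, *SEMA3B*, *SEMA5A* and *SEMA7A*) kept their call under all of them. With each library left out in turn, 7 to 14 members were lower and 3 to 5 higher, 8 to 10 partner genes were lower and 1 to 3 higher, and 770 to 1249 genes were lower and 293 to 587 higher among all genes. The lowest member counts, 7 and 3, came without the second miControl library, and those of 1 partner gene and 293 genes higher without the first. Under glmTreat, which tests against the fold of 0.8 itself, 4 members were lower and 3 higher, as were 4 and 0 partner genes (2 higher at an unadjusted p below 0.05, and 3 called by DESeq2) and 326 and 80 of all genes. With no fold threshold 16 members were lower and 10 higher, 15 partner genes were lower and 5 higher, and 1984 and 1452 of all genes were lower and higher. With library totals alone, which moved the median log2 fold change of all genes from 0.03 to 0.19, 9 members were lower and 8 higher, 709 and 977 of all genes were lower and higher against 1011 and 529, and the median of the members was 0.27 against 0.11 (0.0036, without the second miR-6133-5p library, to 0.14 with each library left out). The log2 fold changes of *EPHA4*, *NEO1*, *PLXNA1* and *PLXND1* were then 0.088, 0.13, 0.16 and 0.13. In all, 13 uncalled members changed sign under at least 1 alternative (these 4 with *EFNB1*, *EPHA1*, *EFNA1*, *NTN1*, *PLXNA3*, *SEMA3D*, *SEMA4A*, *SEMA4F* and *SEMA6A*). The values were, for *EFNB1*, -0.013 with thinned counts and -0.093 to 0.11 with each library left out, and, for *PLXNA1*, 0.0068 without a filter. With each library left out, *NEO1* ran from -0.14 to 0.033, *PLXNA1* from -0.28 to 0.20 and *PLXND1* from -0.14 to 0.031. The cause was not tested. DESeq2 gave *SEMA3E* no adjusted p, and in the setting of at least 10 counts *SEMA3E* was not tested, so both left 12 members lower. Leaving out members whose exons overlap another gene, a setting apart from the 14, left 11 lower and 5 higher. *EFNB2* was among those left out. Samples with the same replicate number share only a number (correlation of their deviations 0.049). With a replicate block 13 members were lower and 6 higher, *PLXNB3* being added, as were 1130 and 642 of all genes. Low counts limit *SEMA3E*, *EPHA3*, *PLXNB3* and the 14 untested members, of which some, such as *ROBO2* and *DPYSL5*, had 0 counts in every library. Whether these were absent or missed for want of depth was not tested. With 2 libraries per group, single outlying libraries cannot be tested.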
